A study of Homo sapiens with 4 samples.

Results

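NR2F1, NR2F2 and NR2F6 are the genes of the COUP-TF receptors, a branch of the nuclear receptor family. They were taken by symbol as 3 of the 33538 genes measured by single-cell RNA sequencing (scRNA-seq) in LNCaP cells, a line from a lymph node metastasis of human prostate cancer. The genes were selected on their levels in these same 4 libraries, so their levels and ratios below are a description and carry no test. The study asked how prostate cancer cells come to tolerate enzalutamide (ENZ), an antiandrogen drug. LNCaP cells were given solvent (0.1% DMSO for 48 h) or 10 µM ENZ for 48 h (LNCaP-ENZ48), and the resistant derivatives RES-A and RES-B were both maintained in 10 µM ENZ. RES-A had been raised under increasing doses of ENZ and RES-B under the related drug RD-162, and each is a single derived line. Every group was sequenced as 1 library. Differences between groups therefore lack replicates, and line, culture and library cannot be told apart. Where 4 values are listed below without names they follow the order LNCaP, LNCaP-ENZ48, RES-A, RES-B, called the library order.

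COUP-TF receptors are called orphan receptors because they were found without a known ligand. They bind repeats of the half-site AGGTCA as pairs, alone or together with retinoid X receptors (RXR), and often repress genes through corepressors such as NCOR1. NR2F1 (COUP-TFI) is known from brain and neural crest development and from work on dormant tumour cells, NR2F2 (COUP-TFII) from blood vessels and mesenchyme, and NR2F6 (EAR2) from T cells.

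After filtering, the libraries held 1782, 4315, 4569 and 4061 cells in library order and between 50208831 and 60838227 UMIs (unique molecular identifiers, each 1 captured RNA molecule). Median depth per cell was highest in LNCaP (27079.5 UMIs), where the study kept only cells over 16000 UMIs, and between 12138 and 13676 elsewhere, where the limit was 5000. Pairs of libraries shared 2 to 9 cell barcodes, which held 0 or 1 UMI of NR2F1. Of 7 luminal prostate markers, 7 reached 10 CPM (UMIs of a gene per 1000000 UMIs of the library) in each library except RES-A, where 5 did: KLK2 (0.0872 CPM) and KLK3 (0.0349 CPM), both androgen-driven secreted proteases, were nearly absent there. None of 9 stroma, 4 endothelium, 4 leukocyte or 2 red blood cell markers reached 10 CPM in any library, and the summed stroma level was 5.40 to 8.46 CPM, highest in LNCaP.

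NR2F1 (ENSG00000175745) spans 93583222 to 93594611 on the plus strand of chromosome 5 (GRCh38, GENCODE 44). It was all but absent from both sensitive libraries, with 2 UMIs in LNCaP and 1 in LNCaP-ENZ48, and was counted 3304 times in RES-A and 406 times in RES-B. In library order the levels were 0.0398, 0.0164, 57.6 and 7.72 CPM, with 95% intervals of [55.7, 59.6] for RES-A and [6.99, 8.51] for RES-B. Intervals here and below cover counting error only. Both resistant lines thus lay above both sensitive libraries, RES-A 1447-fold over LNCaP [400.1, 11950] and RES-B 194-fold [53.3, 1606]. Both folds rest on the 2 UMIs of LNCaP. When all libraries were held to 1 cell filter LNCaP had 0 UMIs, and the log2 ratio was at least 7.81 in RES-A and at least 5.10 in RES-B. RES-B was below RES-A by a log2 ratio of -2.90 [-3.05, -2.75]. No fold is given for LNCaP-ENZ48 against LNCaP, as both counts were at or under 3 UMIs.

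The same pattern was looked for in all genes after these values were seen. Of the 33538 genes, 16092 had at most 3 UMIs in both LNCaP and LNCaP-ENZ48. Only 7 of these reached 10 CPM in RES-A and 3 in RES-B, with CYP7A1 (bile acid synthesis) in both and BTLA and IGSF21 making up the 3. The limit of 3 UMIs decides which genes are counted: IGFBP5, with 1 and 7 UMIs in the sensitive libraries, was at 299.7 CPM in RES-A and falls outside it. NR2F1 had the highest RES-A level of the 7, ahead of PREX1 (22.6 CPM, an activator of Rac) and PCDH19 (19.7 CPM, a protocadherin). NR2F1-AS1 (11.5 CPM), the antisense neighbour of NR2F1, was among them.

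**Figure D1:**
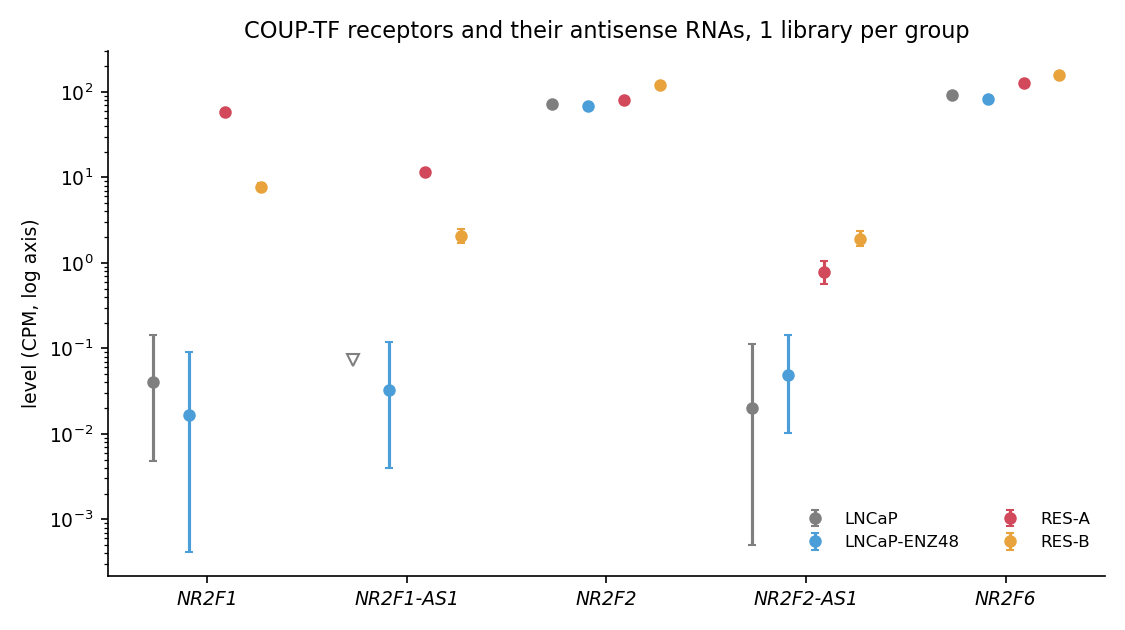
Levels in CPM (log axis) of the COUP-TF receptor genes and the antisense RNAs NR2F1-AS1 and NR2F2-AS1, 1 point per library with its exact Poisson 95% interval (hidden by the point where narrow); the open triangle is the upper limit of NR2F1-AS1 in LNCaP, where 0 UMIs were counted. NR2F1 and NR2F1-AS1 are near 0 in LNCaP and LNCaP-ENZ48 and highest in RES-A, whereas NR2F2 and NR2F6 are present throughout and highest in RES-B.

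NR2F1-AS1 (ENSG00000237187, 93360779 to 93585649, minus strand) is a long noncoding RNA that starts inside NR2F1 and runs away from it. The genes overlap over 2428 bases. NR2F1-AS1 had 0 and 2 UMIs in the sensitive libraries, 661 in RES-A (11.5 CPM) and 108 in RES-B (2.05 CPM). Against a floor of 3 UMIs in LNCaP it was at least 193-fold higher in RES-A and at least 34.4-fold higher in RES-B. RES-B was below RES-A by a log2 ratio of -2.49 [-2.80, -2.19], beside -2.90 for NR2F1. Whether strand was used in counting is not given in the sources used here, so reads in the overlap may be assigned to either gene. The overlap lies at the annotated 5′ end of both genes, whereas the libraries were made to capture 3′ ends.

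Because NR2F1 and NR2F1-AS1 were high and low in the same libraries, the 250 bases before a start of each are shown (RefSeq, GRCh38.p14, 5′ to 3′). RefSeq windows were found for 2 of the 3 receptors. Of 2 listed NR2F1 starts, the one at the gene's 5′ end is shown. Its window is chr5:93582972-93583221 on the plus strand, inside the NR2F1-AS1 gene but in no exon. The NR2F1-AS1 window is chr5:93579859-93580108 on the minus strand, 1 of 5 listed starts and the one whose window holds no exon of either gene while lying upstream of NR2F1. Capitals mark matches on either strand to the half-site letters AGGTCA or to a variant of them (AGTTCA or else GGGTCA or else GGTTCA).
NR2F1: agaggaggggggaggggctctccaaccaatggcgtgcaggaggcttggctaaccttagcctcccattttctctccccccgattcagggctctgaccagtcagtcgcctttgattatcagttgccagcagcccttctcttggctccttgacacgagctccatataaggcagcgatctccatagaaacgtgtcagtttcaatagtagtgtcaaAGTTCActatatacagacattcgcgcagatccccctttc
NR2F1-AS1: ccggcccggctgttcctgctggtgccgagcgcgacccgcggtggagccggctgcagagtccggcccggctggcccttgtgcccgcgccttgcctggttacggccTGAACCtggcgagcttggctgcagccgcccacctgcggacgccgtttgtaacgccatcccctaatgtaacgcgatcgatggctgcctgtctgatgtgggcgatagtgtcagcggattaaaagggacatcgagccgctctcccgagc

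The NR2F1 window shown held 1 such match, AGTTCA, beginning 39 bases before the start, and the NR2F1-AS1 window 1 match, GGTTCA on the opposite strand. Such words are common: 33.8% of 35116 RefSeq windows of this length held at least 1 of these 4 words, 8.80% held AGTTCA and 7.16% GGTTCA. The NR2F1 window also held CCAAT (32.0% of windows) and neither TATAAA (10.7%) nor GGGCGG (42.6%). It had 8 CG pairs and the NR2F1-AS1 window 27, where the median window had 11. The window of the other NR2F1 start, inside the gene, held 1 AGTTCA, 1 TATAAA and 2 CG pairs. The listed starts of NR2F2 lie inside the gene body given by GENCODE 44, so their windows are not shown.

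The other genes near NR2F1 did not share its pattern. Within 500 kb, 3 genes besides NR2F1-AS1 had any UMI. FAM172A was at 19.6, 21.5, 22.7 and 29.5 CPM in library order, and its log2 ratio to LNCaP was 0.21 [0.09, 0.33] for RES-A and 0.59 [0.47, 0.71] for RES-B. POU5F2, a POU domain factor, was between 2.07 and 2.70 CPM in all libraries, and the noncoding AC108102.1 had at most 4 UMIs. The 25 expressed protein-coding genes on either side of NR2F1 span 35.3 Mb. Their median log2 ratio was -0.04 in RES-A and 0.06 in RES-B, beside 0.02 and 0.12 over all expressed protein-coding genes.

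NR2F2 (ENSG00000185551, chromosome 15, 96325938 to 96340263, plus strand) was expressed in all libraries, at 72.2, 68.8, 79.5 and 119.7 CPM in library order. RES-B stood above the other libraries, which lay close together. The log2 ratio of RES-B was 0.73 [0.67, 0.79] to LNCaP and 0.59 [0.54, 0.65] to RES-A. That of RES-A to LNCaP was 0.14 [0.08, 0.20] and turned to -0.017 when all libraries were held to 1 cell filter. That of LNCaP-ENZ48 to LNCaP was -0.07 [-0.13, -0.0048] and turned to 0.026 under TMM scaling and 0.032 under DESeq2 size factors. These differences between LNCaP, LNCaP-ENZ48 and RES-A are therefore within the reach of the processing.

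NR2F2-AS1 (ENSG00000247809, 96110040 to 96327361, minus strand), which overlaps NR2F2 by 1424 bases, had 1, 3, 45 and 101 UMIs in library order. Its RES-B level of 1.92 CPM was 2.45-fold that of RES-A [1.71, 3.56]. Against the 1 UMI of LNCaP the ratio was 39.4-fold in RES-A [6.72, 1591] and 96.5-fold in RES-B [16.9, 3847]. The noncoding AC087477.2, within 500 kb, had 3, 6, 25 and 31 UMIs. The remaining neighbours AC024337.1, AC012409.3 and AC103746.1 had at most 10 UMIs in any library.

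Most coding genes in a long stretch around NR2F2 were lower in the resistant lines than in LNCaP. NR2F2 was higher in RES-B and close to LNCaP in RES-A. For RES-A, 31 expressed protein-coding genes were taken, 25 on one side and 6 toward the chromosome end. They span 18.9 Mb, and no gene within 500 kb of NR2F2 averaged 10 CPM. Of the 31, 29 had a lower level in RES-A than in LNCaP, with a median log2 ratio of -0.75. Over all 7170 expressed protein-coding genes the median was 0.02, and 48.0% were below 0. In RES-B, 28 of 32 such genes were below LNCaP (median -0.42), where 38.7% of all were. NR2F2 itself, at 0.73, was above each of these 32 genes in RES-B, of which the highest had 0.10. In RES-A NR2F2, at 0.14, was above the median of the 31 genes but below the highest, at 0.39. In LNCaP-ENZ48 the median of 33 such genes was -0.05 beside -0.08 over all.

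**Figure D2:**
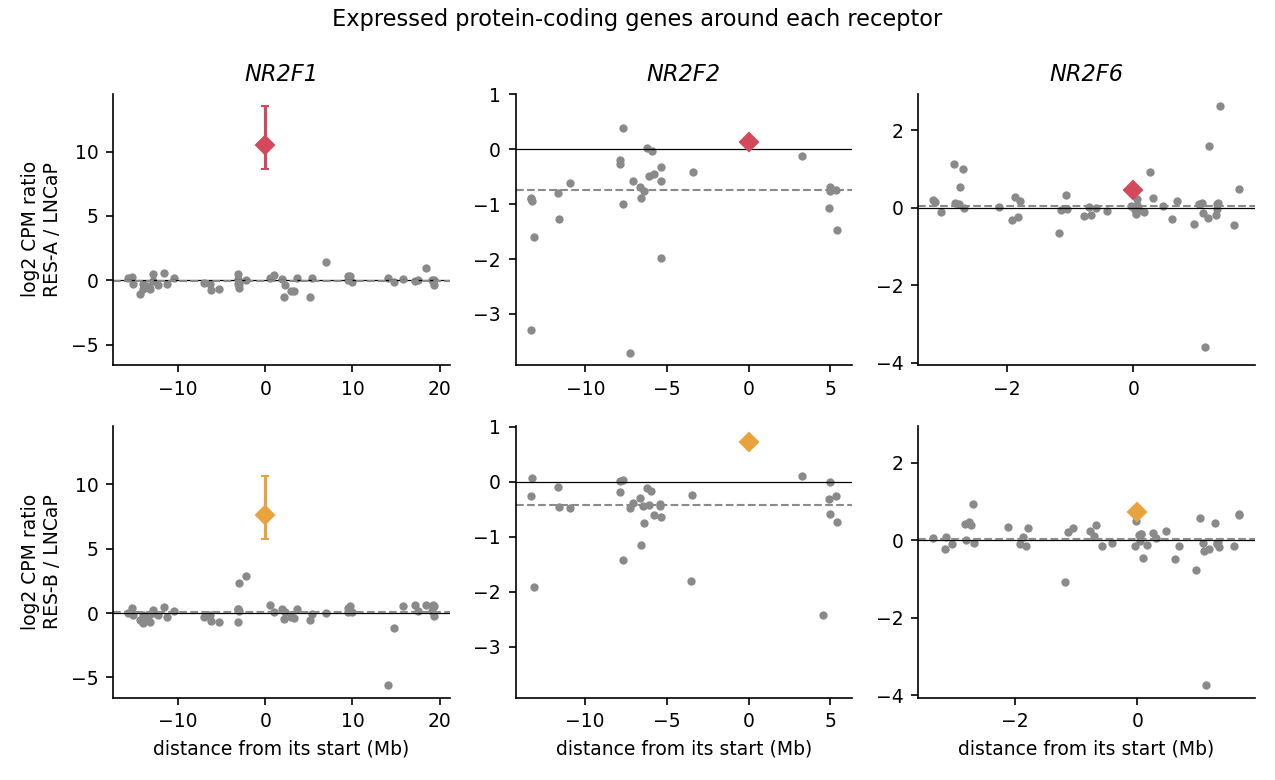
Log2 CPM ratio to LNCaP (RES-A above, RES-B below; vertical scales differ between columns) of expressed protein-coding genes around each receptor against the distance of their starts in Mb, with the receptor as a diamond with its 95% counting interval, the median of the surrounding genes dashed and 0 solid. NR2F1 stands far above its surroundings, NR2F2 lies above the median of its surroundings (-0.75 in RES-A and -0.42 in RES-B), and NR2F6 lies within the range of its neighbours.

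NR2F6 (ENSG00000160113, chromosome 19, 17231883 to 17245919, minus strand) was also present in all libraries. It was at 93.2, 83.6, 128 and 156 CPM in library order, so both resistant lines lay above both sensitive libraries. The log2 ratio to LNCaP was 0.45 [0.40, 0.51] in RES-A and 0.74 [0.69, 0.80] in RES-B, and RES-B was 0.29 [0.24, 0.34] over RES-A. LNCaP-ENZ48 was slightly below LNCaP (-0.16 [-0.21, -0.10]). Within 500 kb, 33 other genes had a UMI, and 12 of them averaged at least 10 CPM in RES-A and LNCaP. Their median log2 ratio was 0.04 in RES-A, from -0.16 (MRPL34, a mitochondrial ribosomal protein) to 0.92 (PGLS, of the pentose phosphate pathway). In RES-B it was 0.10, from -0.44 (GTPBP3) to 0.50 (OCEL1, the next gene), and none of these was past 2-fold in any comparison.

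NR2F2 and NR2F6 were therefore within 2-fold of LNCaP in each library and NR2F1 was not. At least 2-fold higher levels, at a mean of 10 CPM or more, were held by 0.192%, 3.74% and 4.82% of genes in LNCaP-ENZ48, RES-A and RES-B against LNCaP, and by 3.37% for RES-B against RES-A. Lower levels of that size were held by 0.645%, 4.15%, 3.08% and 1.7% in the same order. At a mean of 1 CPM or more, 1.55%, 14.9%, 13.1% and 9.42% of genes were past 2-fold in either direction in these comparisons, and at 50 CPM or more 1.14%, 7.57%, 7.02% and 4.49%. NR2F1 averaged 10 CPM or more only in the comparisons with RES-A. Since the genes were chosen on these levels, nothing is read from these shares for the receptors. Another scaling moved the median of all genes by 0.10 (LNCaP-ENZ48, DESeq2 size factors) and -0.11 (RES-B, TMM) on the log2 scale, and the share of higher genes among those past 2-fold from 23.0% to 34.7% and from 61.0% to 49.4%.

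Together the 3 genes held 165, 152, 265 and 283 CPM in library order. NR2F1 made up 0.0241% and 0.0108% of these UMIs in the sensitive libraries, 21.8% [21.1, 22.4] in RES-A and 2.73% in RES-B. NR2F6 made up 48.2% to 56.3% and NR2F2 30.0% to 45.1%. The sums of both resistant lines were thus above those of the sensitive libraries, with a different make-up. UMIs count 3′ ends, so these shares compare captured molecules and do not depend on gene length, but capture may differ between genes. None of 4417 windows of 50 bases in NR2F1 transcripts occurs in NR2F2 or NR2F6, and none is shared between the latter, so reads of 50 bases or more from these genes could be told apart.

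At the level of single cells, each cell was thinned to 5000 UMIs so that depth did not differ. NR2F1 was then found in 0 of 1782 LNCaP cells, which at a floor of 3 counts allows a share of cells with a UMI of up to 0.168%, and in 1 LNCaP-ENZ48 cell (0.0232%). It was found in 23.4% [22.2, 24.7] of RES-A cells and 3.20% [2.68, 3.79] of RES-B cells. Without thinning the shares were 0.112%, 0.0232%, 42.3% and 7.81%. NR2F2 was found in 29.7%, 28.4%, 32.2% and 44.03% of cells and NR2F6 in 36.6%, 32.95%, 46.3% and 53.6%. For NR2F2 and NR2F6 the shares followed the order of the CPM values, although those of NR2F2 in LNCaP and LNCaP-ENZ48 overlapped in their intervals, [27.6, 31.9] and [27.1, 29.8]. For NR2F1 the order of both sensitive libraries is not read, as they held 0 and 1 positive cells. Unthinned, NR2F6 was detected in 91.0% of the deep LNCaP cells and 76.6% of RES-A cells, the reverse of its CPM order. At least 1 UMI of each of the 3 receptors was seen in 3.57% of thinned RES-A cells and 1.01% of RES-B cells, against 0% and 0.0232% in the sensitive libraries. No other cell type is present to measure free RNA within a library.

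**Figure D3:**
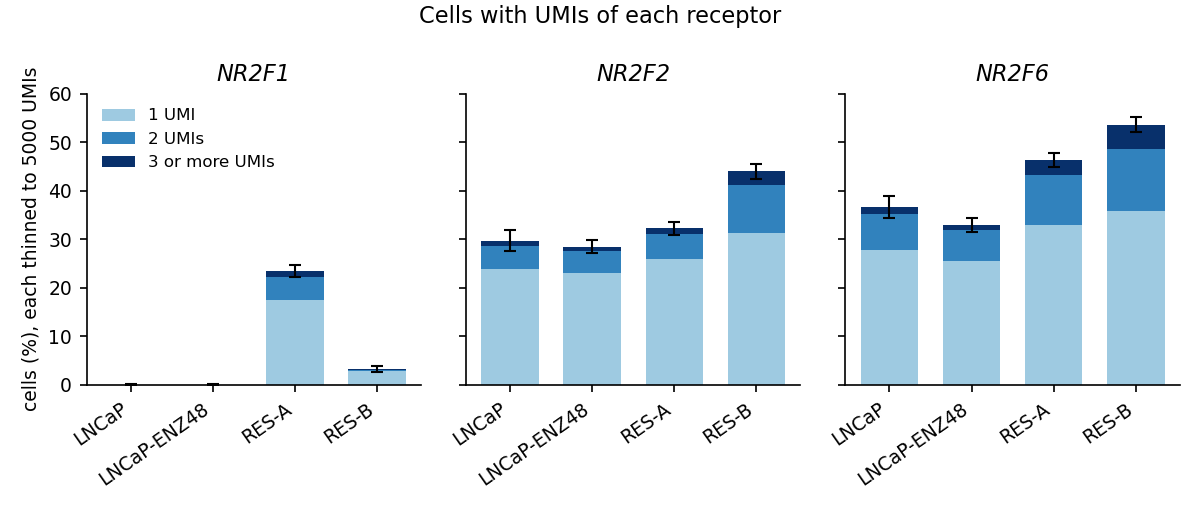
Share of cells (%) with 1, 2 or 3 or more UMIs of NR2F1, NR2F2 and NR2F6 after each cell was thinned to 5000 UMIs; black bars are exact binomial 95% intervals of the share with at least 1 UMI. NR2F1 is seen in 23.4% of cells in RES-A, in 3.20% in RES-B and in almost no other cell, while NR2F2 and NR2F6 are seen in 28.4% or more of cells of every library.

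The spread over cells was wider for NR2F1 than for the other receptors. In RES-A, 268 thinned cells held at least 2 UMIs of NR2F1, where a Poisson distribution with the same mean gives 176, and in RES-B 17 did, where it gives 2.81. The variance over the mean was 1.29 and 1.35, beside 1.06 to 1.14 for NR2F2 and 1.03 to 1.06 for NR2F6 over the 4 libraries. NR2F1 also varied with depth. With RES-A cells split into 3 equal groups by depth, it was at 73.1 CPM in the shallowest, 59.9 in the middle and 47.7 in the deepest cells. In RES-B these values were 8.52, 7.18 and 7.69 CPM.

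NR2F1 was seen in cells called G1, S and G2/M from their cell cycle genes. It was at 58.5, 51.4 and 58.7 CPM in these phases in RES-A and at 8.27, 4.37 and 7.28 CPM in RES-B, where the S value came from 21 UMIs. NR2F2 was lowest in S phase in each library, for example 74.1, 52.8 and 73.4 CPM in LNCaP and 118, 99.5 and 135 CPM in RES-B. NR2F6 showed no common order, with S above G1 in LNCaP, LNCaP-ENZ48 and RES-A and below it in RES-B.

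Joint detection was examined in the same thinned cells. In RES-A, 98 cells held both NR2F1 and NR2F1-AS1, where independent detection would give 62.2, a ratio of 1.57 [1.28, 1.92]. NR2F1-AS1 was seen in 9.17% of NR2F1-positive and 4.8% of NR2F1-negative RES-A cells. In RES-B 6 cells held both, where 1.25 would be given. NR2F1 and NR2F2 were found together 1.05 times as often as independent detection gives in RES-A [0.945, 1.16] and 1.22 times in RES-B [0.953, 1.55], and NR2F1 and NR2F6 0.961 [0.877, 1.05] and 1.03 [0.809, 1.30] times. All of these intervals include 1. For NR2F2 with NR2F6 the ratio was 0.990 to 1.08 over the 4 libraries.

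The NR2F1-positive cells of RES-B were compared with the others by genes that differ between the resistant lines. These genes were picked after their library levels were seen. PRAC1 and CBLN2, at 394 and 80.3 CPM in RES-A, had 0 UMIs in the 130 thinned RES-B cells with NR2F1, with a 95% upper bound of 5.68 CPM. TSPAN8, at 0.68 CPM in RES-A, was at 90.8 CPM [69.1, 117] in these cells and at 63.5 in the RES-B cells without NR2F1. KLK4, HOXA10 and KLK3, also low in RES-A, had lower values in the RES-B cells with NR2F1. KLK4 was at 47.7 CPM [32.4, 67.7] with and 68.7 without NR2F1. HOXA10 was at 43.1 [28.6, 62.3] and 65.0, and KLK3 at 15.4 [7.38, 28.3] and 32.2. SOX9, at 7.34 CPM in RES-A, was instead at 38.5 [24.9, 56.8] with and 27.6 without NR2F1. PAGE1, higher in RES-A, was at 111 CPM [86.7, 139] with and 68.7 without NR2F1. The RES-B cells with NR2F1 thus had no UMI of PRAC1 or CBLN2 and a TSPAN8 level far from that of RES-A. KLK4, HOXA10, KLK3 and PAGE1 lay toward their RES-A levels, as did VIM (90.8 CPM [69.1, 117] with and 63.0 without NR2F1). Other genes higher in RES-A than in RES-B were mixed. RDH10 was at 18.5 CPM [9.54, 32.2] with and 10.2 without NR2F1. EFNA5 was at 3.08 [0.373, 11.1] and 1.48, and NR2F1-AS1 at 9.23 [3.39, 20.1] and 1.68. UGT2B11 was nearly level, at 9.23 [3.39, 20.1] and 8.497, as was SQSTM1, at 405 [357, 457] and 419. TUBA1A was instead lower with NR2F1, at 46.2 CPM [31.1, 65.9] with and 59.8 without it. PREX1 had 0 UMIs with NR2F1 and was at 1.22 CPM without. A common shift toward RES-A is therefore not read from these genes. In the 17 cells with at least 2 UMIs of NR2F1, KLK4 had 0 UMIs, with a 95% upper bound of 43.4 CPM. KLK3 had 2 UMIs there (23.5 CPM [2.85, 85.0]) and HOXA10 3 (35.3 [7.28, 103]). PAGE1 was at 70.6 CPM [25.9, 154], near its level without NR2F1. With intervals this wide, no direction is read from these cells. IGFBP5, an insulin-like growth factor binding protein, was at 0.0199, 0.115, 299.7 and 119.8 CPM in library order. It was near absent in the sensitive libraries as NR2F1 was, but higher than NR2F1 in both resistant lines. IGFBP5 was seen in 34.6% [26.5, 43.5] of NR2F1-positive and 15.6% [14.5, 16.8] of NR2F1-negative RES-B cells. In RES-A the shares were 55.3% [52.2, 58.3] and 44.7% [43.1, 46.4]. In RES-B the IGFBP5 level was 285 CPM [245, 329] in cells with NR2F1 and 125 in those without. Its UMIs were uneven over these thinned cells, with up to 21 in 1 cell with NR2F1 and 66 in 1 without. The interval covers counting error only and not this spread between cells. In the 17 cells with at least 2 UMIs of NR2F1 the IGFBP5 level was 94.1 CPM [40.6, 185].

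Correlations over the 4569 RES-A cells were weak. Among 2412 genes with at least 50 CPM, the 5 whose Pearson residuals (counts corrected for depth) followed NR2F1 most closely were SOX4 (r = 0.22), a developmental transcription factor, PTMA (0.20), TMSB10 (0.20), RPL7 (0.17) and HSP90B1 (0.16). Of the absolute values of all genes, 99% were under 0.122. In RES-B the same genes had r of 0.01, 0.03, 0.02, 0.15 and 0.01, so that RPL7 was alone among them in having a like value. The 5 highest in RES-B were all ribosomal protein genes, led by RPL7 and RPS23 (0.10). SOX4 was at 579 CPM [559, 600] in NR2F1-positive and 417 [408, 427] in NR2F1-negative thinned RES-A cells. The positive cells were shallower before thinning (median 11531 against 12305.5 UMIs). The negative cells include some that lost NR2F1 in thinning, as 42.3% of unthinned and 23.4% of thinned cells held it. Groups of RES-B cells by NR2F1 share both limits. MME, a cell surface peptidase, had the lowest r in both lines, -0.15 in RES-A and -0.11 in RES-B. All cells of a line share 1 library, and MT-CO1 and MT-CO2, encoded in mitochondria and read as a sign of cell quality, were among the 5 lowest in RES-A (-0.14 and -0.13). Their part in these values was not tested.

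The rest of the nuclear receptor family was compared by a list of 45 genes. Of these, 12 reached 10 CPM in at least 1 library and 16 were under 1 CPM in all. Among the 9 with a mean of at least 10 CPM in RES-A and LNCaP, 1 was past 2-fold: THRB, a thyroid hormone receptor, at 12.4, 6.72, 33.4 and 4.47 CPM in library order. THRB was high in RES-A and low in RES-B, with a log2 ratio of RES-B to RES-A of -2.90 [-3.10, -2.71]. None of 8 expressed receptors was past 2-fold in LNCaP-ENZ48 or RES-B against LNCaP. THRB was not among these 8, as its mean with LNCaP was under 10 CPM. Its RES-B level of 4.47 CPM was still more than 2-fold below the 12.4 CPM of LNCaP. Over all expressed genes, 3.74% were at least 2-fold higher in RES-A than in LNCaP. The list median was -0.06, 0.15 and 0.07 for these 3 groups (LNCaP-ENZ48 first, RES-B last), beside -0.07, 0.02 and 0.11 over all expressed genes.

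RXRA, a dimer partner of COUP-TF receptors, was nearly level at 29.7, 33.9, 30.1 and 31.3 CPM in library order, and RXRB was between 6.45 and 10.6 CPM. ESRRA, an oestrogen-related receptor, was at 55.6, 51.3, 60.2 and 32.6 CPM and thus lowest in RES-B. PPARA, which senses fatty acids, was at 13.4 CPM in LNCaP and at 7.06 and 6.70 in RES-A and RES-B. NR2C1, an orphan receptor of the same subfamily, was at 10.4 CPM in LNCaP and 2.57 in RES-B, under the mean of 10 CPM for a call. THRA, the other thyroid hormone receptor, was at 18.3 CPM in LNCaP, 23.4 in RES-A and 27.0 in RES-B. NR1H2 (27.9 to 30.9 CPM), NR1D2 (20.6 to 30.2) and NR2C2 (6.17 to 10.1) were within 2-fold of LNCaP.

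**Figure D4:**
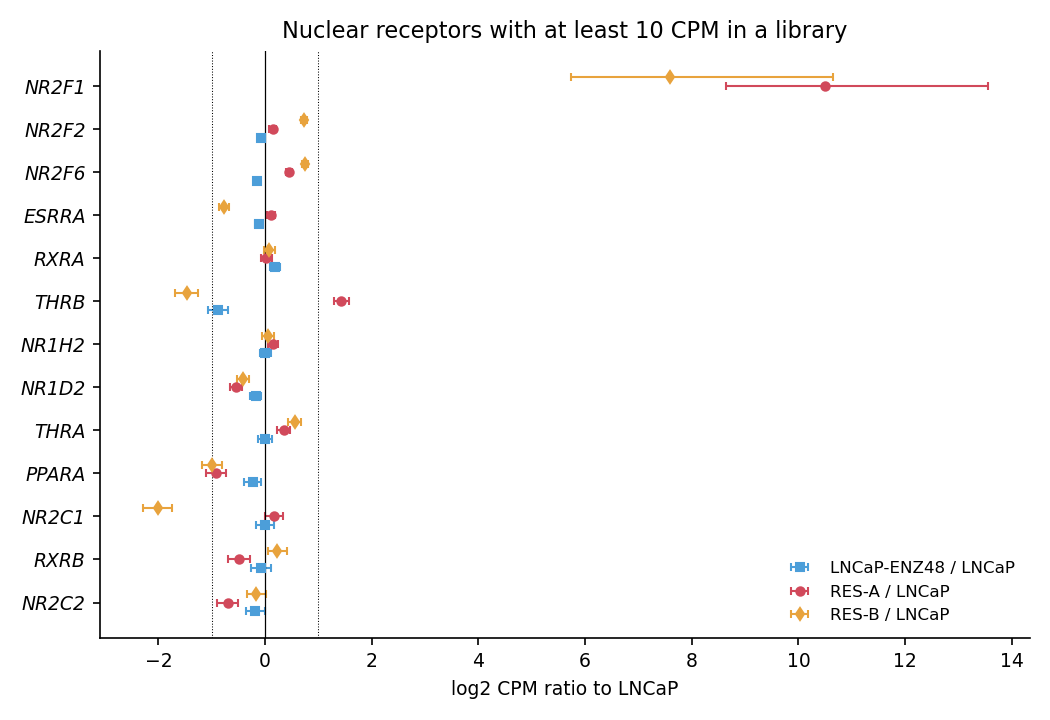
Log2 CPM ratio to LNCaP of NR2F1, NR2F2, NR2F6 and 10 of the 12 other nuclear receptors with at least 10 CPM in a library, with exact conditional binomial 95% intervals; dotted lines mark 2-fold, and NR2F1 in LNCaP-ENZ48 is left out because both counts are at or under 3 UMIs. NR2F1 lies far to the right in RES-A and RES-B, and THRB and NR2C1 are the only other receptors shown past a dotted line.

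Among 23 cofactors of nuclear receptors, 17 or 18 were expressed in each comparison. In RES-A 1 was at least 2-fold higher and 1 lower, in RES-B 1 higher, and in LNCaP-ENZ48 and for RES-B against RES-A none. Over all expressed genes, 3.74% were higher and 4.15% lower in RES-A, and 4.82% higher and 3.08% lower in RES-B. With so few cofactors, nothing is read from these counts. SQSTM1, an autophagy receptor listed here as a partner of COUP-TFII, was at 151, 167, 543 and 430.1 CPM. Both resistant lines were above both sensitive libraries (1.85 [1.82, 1.89] and 1.51 [1.48, 1.55]). TBL1XR1, part of the NCOR corepressor complex, was at 198, 155, 95.9 and 151 CPM and lowest in RES-A (-1.05 [-1.10, -0.9996]). NCOR1 itself was within 2-fold, at 145, 117, 109.9 and 119.8 CPM. The list median in RES-A was -0.13, beside 0.02 over all genes, and in RES-B -0.05 beside 0.11.

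Retinoid genes were mostly silent: of 21 genes for retinoid metabolism and response, 2 or 3 were expressed in any comparison. RDH10, which oxidises retinol, was at 6.19, 12.3, 90.6 and 10.5 CPM in library order, so RES-A stood alone (3.87 [3.71, 4.04] over LNCaP). ALDH1A3, which makes retinoic acid, went the other way, at 19.3, 9.63, 0.192 and 3.595 CPM. It was the 1 gene of the list past 2-fold in LNCaP-ENZ48 (-1.004 [-1.15, -0.85], and within 2-fold under TMM or DESeq2 scaling) and in RES-B (-2.43 [-2.66, -2.20]), and its mean of RES-A and LNCaP was under 10 CPM. RDH10 was the 1 gene past 2-fold for RES-B against RES-A (-3.11 [-3.24, -2.98]). With so few genes the list medians describe single genes.

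Of 30 genes linked to COUP-TF receptors in other systems, 7 or 8 were expressed. MPC1, a mitochondrial pyruvate carrier, was at 24.7, 25.8, 51.7 and 53.0 CPM, with both resistant lines near 2-fold over LNCaP (1.06 [0.97, 1.16] and 1.10 [1.00, 1.20]). NRP1, a coreceptor for vascular growth factors, was at 39.4, 50.9, 5.84 and 22.4 CPM and lowest in RES-A (-2.75 [-2.92, -2.59]). SOX9, linked to NR2F1 in dormant tumour cells, was at 1.55, 4.37, 7.34 and 27.2 CPM and highest in RES-B (4.13 [3.80, 4.48]), while NR2F1 was highest in RES-A. Within RES-A, SOX9 was at 10.3 CPM [7.75, 13.4] in thinned cells with NR2F1 and 6.11 [5.01, 7.39] in those without. Within RES-B it was at 38.5 [24.9, 56.8] and 27.6 [25.4, 30.1], with overlapping intervals. In cells with at least 2 UMIs of NR2F1, SOX9 was at 10.4 [5.71, 17.5] in RES-A and 23.5 [2.85, 85.0] in RES-B. Other genes also differed between these RES-A cells, such as VIM (259 with and 207 without NR2F1) and SQSTM1 (484 and 558). A link of SOX9 to NR2F1 is therefore not read from these values. CDKN1A, a cell cycle inhibitor, was at 57.8, 43.9, 55.0 and 19.2 CPM and lowest in RES-B (-1.59 [-1.69, -1.49]). BHLHE41, a circadian repressor named here after its values were seen, had 1, 0, 277 and 524 UMIs, near absent in the sensitive libraries as NR2F1 was, and was under 10 CPM in each library. In all, 1 gene was higher and 1 lower in RES-A, 2 higher and 1 lower in RES-B, and none past 2-fold in LNCaP-ENZ48. Over all expressed genes, 3.74% were higher and 4.15% lower in RES-A, and 4.82% and 3.08% in RES-B. For RES-A, RES-B and LNCaP-ENZ48 the list medians were -0.54, -0.17 and -0.06, beside 0.02, 0.11 and -0.07 over all genes. For RES-B against RES-A, NRP1 (1.94 [1.76, 2.12]) and SOX9 (1.89 [1.73, 2.05]) were higher and CDKN1A (-1.52 [-1.62, -1.42]) lower. The list holds targets and partners reported elsewhere for any of the receptors, in either direction.

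Genes with the levels most like those of each receptor were found by the distance between log2(CPM + 1) values centred over the 4 libraries, among 8328 genes with at least 10 CPM in a library. Those nearest to NR2F1 were PAGE1 (12.5, 12.1, 361 and 70.6 CPM), a cancer-testis antigen, at a distance of 0.91, and VIM (2.07, 2.09, 211 and 59.9 CPM), the mesenchymal filament vimentin, at 1.00. TUBA1A (1.59), UGT2B11 (1.66) and PREX1 (1.68) followed. Each was high in RES-A, intermediate or low in RES-B and low in both sensitive libraries, which follows from the choice by likeness. For NR2F2, LRRC41, SCYL2 and CHDH lay within 0.055, and for NR2F6, SRPRB, SLC35B2 and KAT6B within 0.046. The distance of the nearest gene was thus larger for NR2F1 than for the others, whose levels spanned less. The likeness is over 4 points only.

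**Figure D5:**
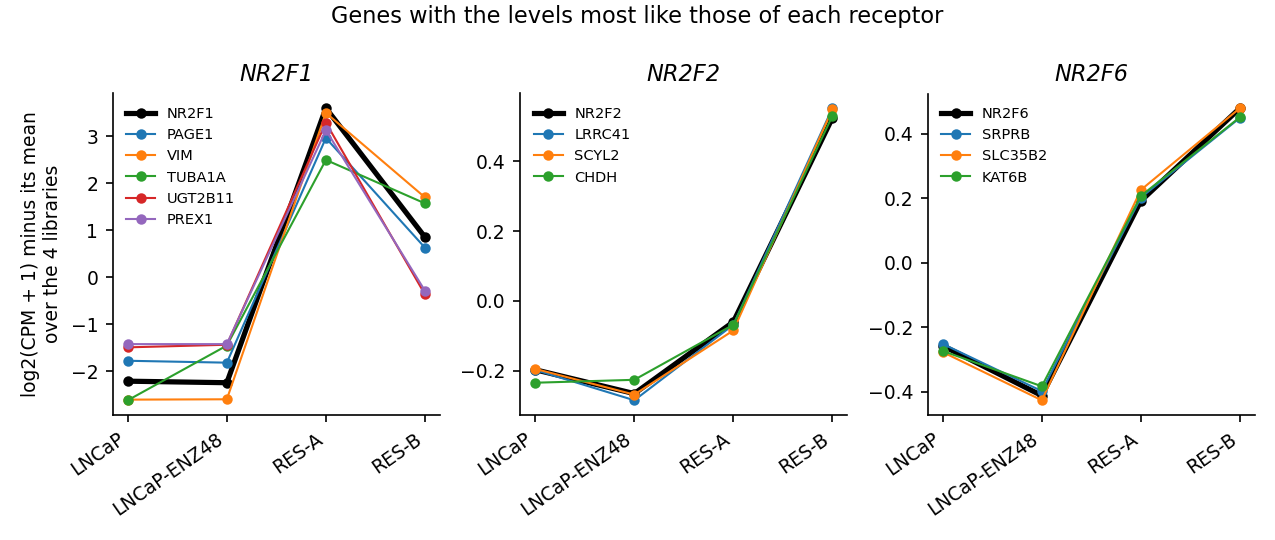
Log2(CPM + 1) minus its mean over the 4 libraries for each receptor (black) and the genes with the smallest distance to it (colours); vertical scales differ between panels. The genes nearest to NR2F1 peak in RES-A, and those nearest to NR2F2 and NR2F6 are highest in RES-B, which follows from choosing them by these same levels.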

How the data were processed

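The authors sorted living cells, made 10x Genomics 3′ v3 libraries and deposited filtered matrices of raw UMI counts per gene and cell, made with Cell Ranger 3.0.2 against GRCh38, per the file headers and the submitters' processing notes. The strand setting of counting is not given in the sources used here. The cell limits of the study were applied: 3000 to 7000 genes, 16000 to 50000 UMIs and under 15% mitochondrial UMIs in LNCaP, and 1500 to 5000 genes, 5000 to 25000 UMIs and under 15%, 17% or 20% in LNCaP-ENZ48, RES-A or RES-B. These limits set part of the difference in depth. Doublets were not removed and no caller was run.

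Counts were summed over the cells of a library and scaled to CPM. Intervals are exact at 95% (Poisson for levels, Clopper-Pearson for shares, conditional binomial for ratios; SciPy 1.17.1) and cover counting error only, with a floor of 3 UMIs. With 1 library per group no test between groups was made. A gene was expressed in a comparison at a mean of at least 10 CPM and past 2-fold at a log2 ratio of at least 1 in size. Shares used cells thinned to 5000 UMIs. Phases came from scanpy 1.11.5, and Pearson residuals used theta 100. Gene IDs were matched to GENCODE 44 (33113 of 33538 found), and promoter windows came from RefSeq. TMM scaling (edgeR 4.0.16), DESeq2 1.42.0 size factors, other cell sets and other minimum levels were alternatives. The scripts were tested on simulated data.

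The receptors and the gene lists were chosen with earlier results of these data known. The text names the receptors, genes with a UMI within 500 kb, the 5 genes most like NR2F1 and 3 most like each other receptor, up to 4 genes of a list past 2-fold in each direction, the 5 genes correlating highest with NR2F1 over RES-A cells, nuclear receptors reaching 10 CPM (10 of 12 are reported here), and cell type markers. Others were named after their values were seen: NCOR1, BHLHE41, the lowest-correlating genes, the ribosomal genes of RES-B, IGFBP5, the genes that tell the resistant lines apart, and the genes of the search for like patterns. A test over single cells was not made, since cells of 1 library are not replicates.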

Additional observations from a re-analysis of the deposited data

Results flagged for a closer look

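NR2F1 was also counted in data outside the comparisons, in the barcodes that the cell limits removed. It had 145 UMIs there in RES-A (54.2 CPM [45.7, 63.8]) and 47 in RES-B (6.18 CPM [4.54, 8.22]). The removed barcodes of LNCaP and LNCaP-ENZ48 held 0 UMIs, with upper limits of 0.577 and 0.466 CPM. These levels lie near those of the kept cells, which held 57.6 CPM (RES-A) and 7.72 CPM (RES-B).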

How the results depend on the processing

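No paired analysis was possible because every group was 1 library, so replicates could be neither paired nor left out. Of 256 alternative values 200 were the same, 53 moved and 3 turned direction. The direction turned for NR2F2 in LNCaP-ENZ48 against LNCaP (0.026 under TMM and 0.032 under DESeq2 size factors) and in RES-A against LNCaP (-0.017 under 1 filter for all libraries). The cause was not tested. Under 1 filter, which kept 659 to 1234 cells per library, the log2 ratio of NR2F1 was at least 7.81 in RES-A and 5.10 in RES-B, where LNCaP was at 0 UMIs, and -2.70 for RES-B against RES-A. Under that filter NR2F2 had -0.29 in LNCaP-ENZ48 and 0.62 in RES-B, and NR2F6 had -0.30, 0.37 and 0.55 in LNCaP-ENZ48, in RES-A and RES-B and 0.18 for RES-B against RES-A. Under TMM, NR2F2 had 0.62 in RES-B, and NR2F6 had -0.061 in LNCaP-ENZ48, 0.64 in RES-B and 0.24 for RES-B against RES-A. Under DESeq2 size factors, NR2F2 had 0.63 in RES-B and 0.53 for RES-B against RES-A, and NR2F6 had -0.055, 0.64 and 0.23 in the same comparisons as under TMM.

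In unthinned cells the share with a UMI was 42.3% and 7.81% for NR2F1 in RES-A and RES-B, 82.0%, 58.8%, 60.3% and 74.7% for NR2F2 in library order, and 91.0%, 66.7%, 76.6% and 82.9% for NR2F6. These moved with depth by construction.

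At a mean of at least 1 CPM, more genes were past 2-fold: 6 of 25, 5 of 25 and 6 of 26 nuclear receptors (RES-A, RES-B, RES-B against RES-A), 2 of 20 cofactors in RES-B, 2, 4 and 4 of 5 retinoid genes (LNCaP-ENZ48, RES-A, RES-B against RES-A) and 1 of 11 and 5 of 12 linked genes (LNCaP-ENZ48, RES-A). Of all genes at that level, 1.55%, 14.9%, 13.1% and 9.42% were past 2-fold in LNCaP-ENZ48, RES-A, RES-B and RES-B against RES-A. At 50 CPM, where the nuclear receptor, retinoid and linked lists had 1 or 2 genes each, the count was 0 for nuclear receptors in RES-A and RES-B against RES-A, for retinoid genes in each comparison with LNCaP and for linked genes in RES-A, RES-B and RES-B against RES-A, and the cofactor median was 0.34 in RES-A and -0.11 for RES-B against RES-A. Under TMM and under DESeq2 size factors, 0 retinoid genes were past 2-fold in LNCaP-ENZ48. In G1 cells the retinoid count in RES-A was 2 and the median -0.77. Among genes of at least 50 CPM, 1 of the 3 most like NR2F2 and 1 of the 3 most like NR2F6 were shared with the main choice.

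The precision of the NR2F1 ratios to LNCaP is limited by its 2 UMIs there.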
